A study of Mytilus galloprovincialis with 12 samples.

Results

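A group of 39 cDNA clones of the mussel *Mytilus galloprovincialis* was higher than vehicle in the digestive gland after chlorpyrifos (CHP), both with 17β-estradiol (CHP/E2) and without it, and lay near the vehicle level after estradiol alone (E2). The clones were chosen on the deposited log2 ratios of treated to vehicle RNA, with the 2 spots of each clone averaged on every array. A clone entered the group when its mean over 4 arrays was at least 0.25 in CHP/E2 and in CHP, at least 3 of the 4 arrays of each were above 0, and its mean in E2 lay within 0.25 of 0. These 39 clones are 2.15% of the 1816 clones with a deposited value, out of 1920 on the array. The same ratios therefore chose the clones, and their height against vehicle is a description and not a finding.

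A total of 12 dual color arrays had been hybridised with digestive gland RNA of female mussels sampled in October, 4 each for CHP/E2, CHP and E2. Each array compared RNA pooled over 6 treated animals with that of vehicle mussels, which had 0.02% DMSO in the water and 50 µl of artificial seawater with 0.05% ethanol in the muscle. CHP/E2 mussels had 4.5 mg/L chlorpyrifos in the water for 3 days and then 25 pmol estradiol in the posterior adductor muscle. Every treated group also had 0.02% DMSO in the water and a 50 µl injection with 0.05% ethanol. E2 mussels had 25 pmol estradiol without chlorpyrifos, and the injection of CHP mussels held no estradiol. In CHP mussels 4.5 mg/L chlorpyrifos lasted 4 days per the labels. The labelled times thus differ between CHP/E2 and CHP, and the methods give both the same exposure before injection. Length of exposure and estradiol cannot be told apart in the labelled difference between them.

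Chlorpyrifos is an organophosphate insecticide that animals oxidise to an oxon, which blocks acetylcholinesterase, the enzyme that clears the transmitter acetylcholine. The digestive gland is the mussel's main organ of intracellular digestion and of nutrient storage, rich in lysosomes, and it is the place where many foreign chemicals are oxidised, conjugated and excreted. Estradiol is the main estrogen of vertebrates and acts there through nuclear and membrane receptors. The files name no gene for any of the 39 clones and 0 of their IDs matched the RefSeq gene table, so the clones are given by ID and their functions, and the defining markers of digestive gland, were not analysed here.

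Over the 39 clones the median of the mean log2 ratios was 0.45 in CHP/E2 (0.25 to 1.43), 0.59 in CHP (0.26 to 1.05) and 0.10 in E2 (-0.22 to 0.24), against -0.02, -0.01 and -0.01 over all 1816 clones. In tissue RNA such as this, more cells of a type and more RNA per cell cannot be told apart. Most of these ratios were small: 13 of the 39 clones had a mean of at least 0.5 in both chlorpyrifos groups, and 1 clone reached 1 in both. Of the 39, 25 were above 0 on all 8 arrays of CHP/E2 and CHP, 11 on 7 and 3 on 6, where 3.47% of all clones were above 0 on all 8. With the limit on E2 lifted, 82 clones were raised in both groups, and 37 of them had a mean of at least 0.25 in E2 and 6 a mean of -0.25 or below. The mirror set, lowered in both chlorpyrifos groups and near vehicle in E2, held 21 clones, with medians of -0.32 in CHP/E2 and -0.33 in CHP.

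**Figure D1:**
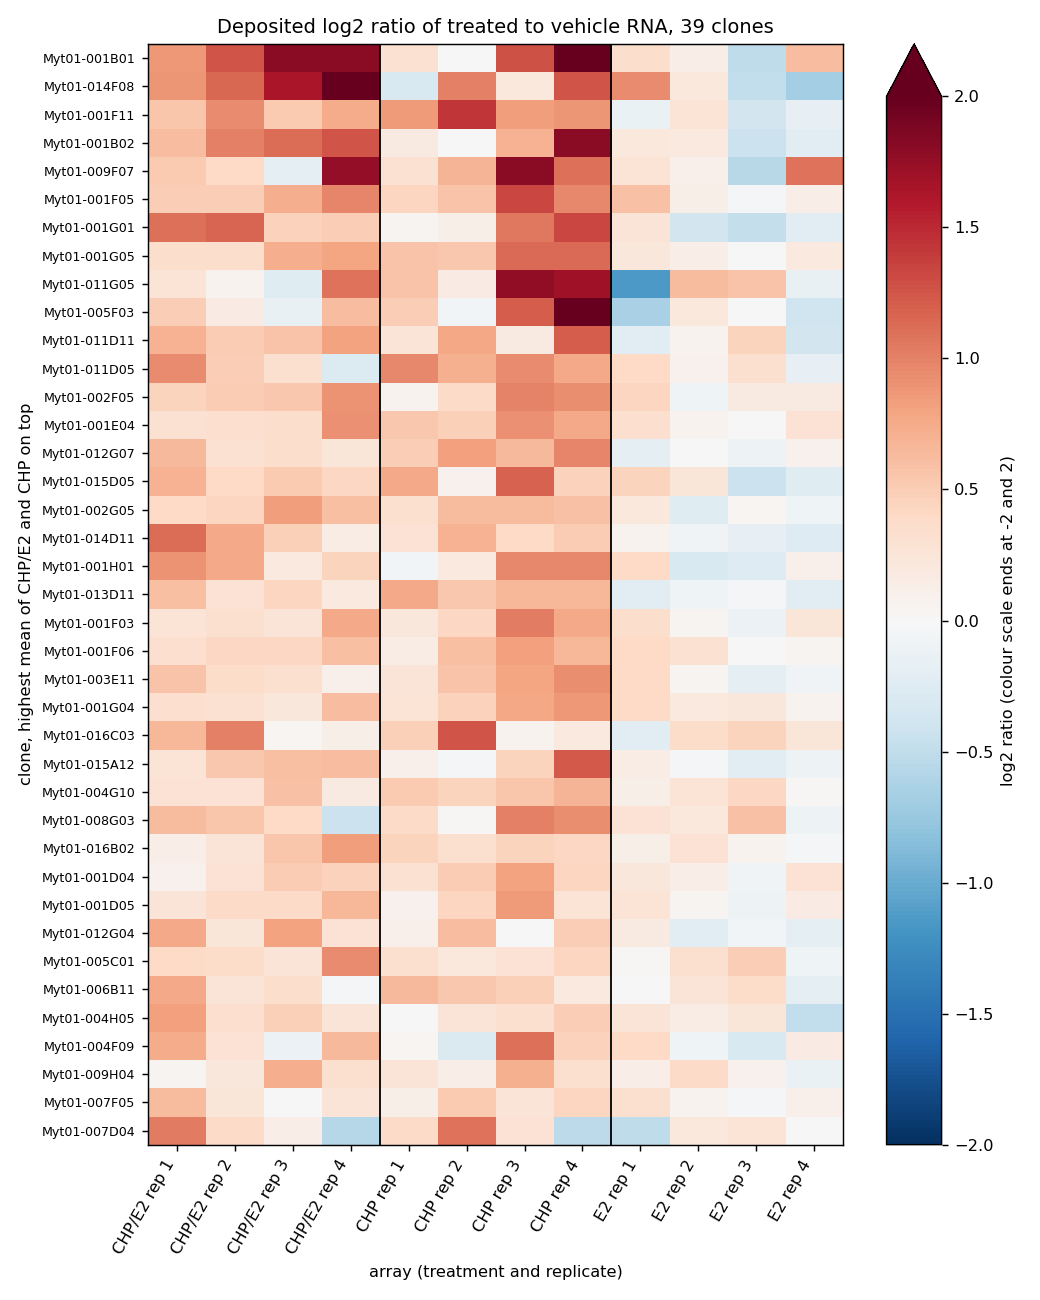
Deposited log2 ratio of treated to vehicle RNA for the 39 clones (rows, largest mean of CHP/E2 and CHP on top) on the 12 arrays (columns; CHP/E2, CHP and E2 replicates 1 to 4). Red is above and blue below vehicle, with the colour scale ending at -2 and 2. The 8 columns of CHP/E2 and CHP are mostly red, and the 4 columns of E2 hold both colours in 35 of the 39 rows.

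The clone with the largest ratios was Myt01-001B01. It measured 0.86, 1.27, 1.80 and 1.81 on the 4 CHP/E2 arrays, 0.31, 0.00, 1.27 and 2.55 with CHP, and 0.35, 0.13, -0.51 and 0.61 with E2. Its CHP/E2 arrays all lay above its E2 arrays, while CHP replicates 1 and 2 lay among them. The means were 1.43 ± 0.46 in CHP/E2, 1.03 ± 1.14 in CHP and 0.14 ± 0.48 in E2 (SD, n = 4 each), or 2.70-fold and 2.04-fold vehicle in the chlorpyrifos groups. One E2 value of this clone rests on spots that disagree, since those on E2 replicate 4 read 1.57 and -0.35.

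Myt01-001B02, from the next well of the source plate, measured 0.61, 1.01, 1.11 and 1.26 in CHP/E2, 0.19, -0.01, 0.69 and 1.81 in CHP, and 0.21, 0.20, -0.43 and -0.21 in E2. As for its neighbour, every CHP/E2 array stood above every E2 array, and CHP replicate 4 was far the highest of the CHP arrays. Myt01-014F08 measured 0.89, 1.15, 1.63 and 2.06 in CHP/E2, -0.31, 1.0, 0.21 and 1.27 in CHP, and 0.95, 0.21, -0.50 and -0.69 in E2. Its lowest CHP/E2 array and its highest E2 array overlapped, and its mean in CHP/E2 was 1.43 ± 0.52 against 0.54 ± 0.72 in CHP (SD, n = 4 each).

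The clones with the highest lowest value over the 8 chlorpyrifos arrays were Myt01-001F11, Myt01-001F05 and Myt01-001G05. Myt01-001F11 measured 0.56, 0.94, 0.53 and 0.75 in CHP/E2, 0.85, 1.44, 0.84 and 0.88 in CHP, and -0.14, 0.27, -0.38 and -0.16 in E2. None of its chlorpyrifos arrays overlapped its E2 arrays. Myt01-001F05 measured 0.50, 0.49, 0.72 and 0.98 in CHP/E2, 0.43, 0.57, 1.33 and 0.96 in CHP, and 0.58, 0.12, -0.04 and 0.13 in E2, so E2 replicate 1 lay within its chlorpyrifos arrays. Myt01-001G05 measured 0.35, 0.35, 0.73 and 0.79 in CHP/E2, 0.57, 0.54, 1.13 and 1.13 in CHP, and 0.23, 0.13, -0.01 and 0.19 in E2, again with no overlap.

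In 6 clones all 8 chlorpyrifos arrays lay above all 4 E2 arrays, as in 0.936% of all clones; the rule used both sides of this contrast, and nothing is read from the count. Beside Myt01-001F11 and Myt01-001G05 these were Myt01-002G05, Myt01-012G07, Myt01-013D11 and Myt01-014D11. Myt01-013D11 had the smallest spread in CHP and E2 of the 4. It measured 0.60, 0.29, 0.44 and 0.19 in CHP/E2, 0.75, 0.55, 0.66 and 0.67 in CHP, and -0.21, -0.09, -0.02 and -0.23 in E2, and was the clone below vehicle on all 4 E2 arrays. The values of Myt01-002G05 come from a faint probe, above background on 4 of the 12 arrays.

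Other clones owed their means to some arrays of a group. Myt01-011G05 measured 0.28, 0.07, -0.24 and 1.08 in CHP/E2, 0.57, 0.17, 1.78 and 1.70 in CHP, and -1.15, 0.64, 0.57 and -0.15 in E2. Myt01-005F03 measured 0.50, 0.17, -0.15 and 0.61 in CHP/E2, 0.49, -0.06, 1.22 and 2.36 in CHP, and -0.66, 0.21, -0.02 and -0.40 in E2. In both, CHP replicates 3 and 4 stood above every other array, and the other CHP arrays lay within the CHP/E2 values. Myt01-009F07 measured 0.53, 0.40, -0.18 and 1.77 in CHP/E2, 0.30, 0.68, 1.81 and 1.1 in CHP, and 0.27, 0.10, -0.55 and 1.09 in E2, with the highest CHP/E2, CHP and E2 values all on the dye-swapped arrays, where treated RNA carried Cy3.

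Myt01-001G01 showed a further pattern, with 1.095, 1.16, 0.46 and 0.49 in CHP/E2 and 0.06, 0.12, 1.05 and 1.34 in CHP, against 0.26, -0.38, -0.47 and -0.22 in E2. Its high arrays were replicates 1 and 2 in CHP/E2 and replicates 3 and 4 in CHP. In each of these groups replicates 1 and 2 shared a slide. Myt01-011D05 had its lowest value of each group except CHP on the swapped array, with 0.94, 0.50, 0.33 and -0.28 in CHP/E2, 0.96, 0.71, 0.95 and 0.77 in CHP, and 0.40, 0.09, 0.33 and -0.17 in E2. Myt01-008G03, with the highest E2 mean of the group (0.24 ± 0.28, SD, n = 4), had 0.63, 0.56, 0.40 and -0.43 in CHP/E2, 0.39, 0.03, 1.0 and 0.94 in CHP, and 0.29, 0.21, 0.58 and -0.10 in E2. Myt01-011D11 was positive on all 8 chlorpyrifos arrays, with 0.69, 0.50, 0.57 and 0.80 in CHP/E2, 0.27, 0.77, 0.18 and 1.22 in CHP, and -0.23, 0.07, 0.44 and -0.37 in E2.

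The other 26 clones had means of 0.25 to 0.62 in CHP/E2, 0.26 to 0.74 in CHP and -0.14 to 0.22 in E2, and single arrays ran as low as -0.57 in CHP/E2 and -0.52 in CHP. Nearest inside the limit of 0.25 lay Myt01-007D04 (0.25 ± 0.67 in CHP/E2) and Myt01-004H05 (0.26 ± 0.21 in CHP), and just outside it Myt01-008D08 (0.25 ± 0.25 in CHP) and Myt01-005G08 (0.24 ± 0.23 in CHP; SD, n = 4 each). On the E2 limit, Myt01-008G03 (0.24) and Myt01-009F07 (0.23) were inside, and Myt01-001F04 and Myt01-003H04 (0.26 each) were outside. The clone with the largest ratios in both chlorpyrifos groups together, Myt01-008E11 at 2.62 ± 0.36 in CHP/E2 and 2.32 ± 0.60 in CHP (SD, n = 4 each), was left out by an E2 mean of 0.27 ± 0.08. The edges of the group are thus closer to neighbouring clones than the spread between arrays.

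The arrays of a group differed among themselves. The median of the 39 clones was 0.57, 0.38, 0.44 and 0.60 on the 4 CHP/E2 arrays, 0.31, 0.48, 0.80 and 0.76 with CHP, and 0.23, 0.13, -0.02 and -0.07 with E2, with all-clone medians between -0.02 and 0.02. CHP replicates 3 and 4 gave the highest CHP value of 14 and 15 clones, and replicates 1 and 2 the lowest of 17 and 16. Replicates 1 and 2 shared a slide in CHP, as they did in CHP/E2 and in E2. The part of slide in this split was not tested. The swapped CHP/E2 replicate 4 was the highest CHP/E2 array for 18 clones and the lowest for 10. E2 replicate 1 was the highest E2 array for 22 of the 39.

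A pair of slides carried both a chlorpyrifos array and an E2 array. On the first of these, CHP/E2 replicate 3 exceeded E2 replicate 3 in 30 of the 39 clones, against 865 of all 1816. On the other, CHP replicate 3 exceeded E2 replicate 4 in 38 of the 39, against 895 of 1816. The rule chose the clones on these same arrays, so the counts restate the choice and nothing is read from them. Over all clones, CHP replicate 4 and CHP/E2 replicate 2, both with treated RNA in Cy5, correlated at -0.542. Since the labels give each array's dyes, both were kept as labelled. Without CHP replicate 4 the rule was met by 43 clones, 36 of them among the 39. Without CHP/E2 replicate 2 it was met by 42 clones, 37 of them among the 39. In the group that had lost an array, 1 array at or below 0 was still allowed, a looser bound.

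**Figure D2:**
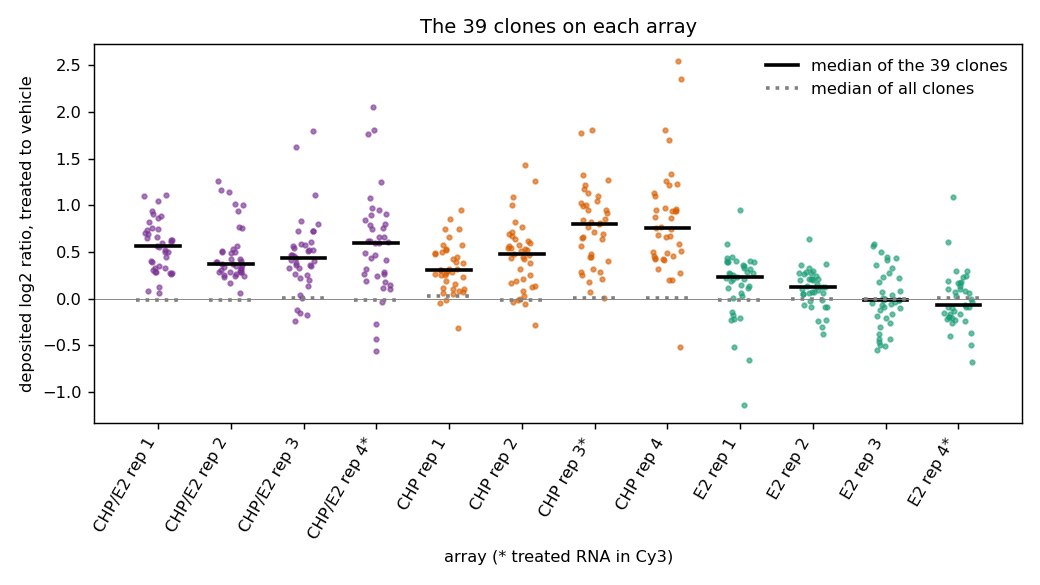
Deposited log2 ratio (vertical axis) of each of the 39 clones (points) on each array (horizontal axis; CHP/E2, CHP and E2 replicates, with an asterisk where treated RNA was in Cy3). Black lines are medians of the 39 clones, between 0.31 and 0.80 on the chlorpyrifos arrays and between -0.07 and 0.23 on the E2 arrays, and dotted grey lines are medians of all 1816 clones.

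Whether estradiol changed these clones on top of chlorpyrifos is asked by CHP/E2 minus CHP, where the rule set the same bounds on both groups. By asking for a raised mean in both groups on these arrays, the rule did limit the size of the difference, so fewer calls than over all clones were partly fixed by the choice and nothing is read from how the counts compare. It was taken from the scanner intensities with limma over all 12 arrays. None of the 39 clones was called at B over 0, the log-odds threshold of the methods, where 0.165% of all clones were (3 of 1816, all higher in CHP/E2; without CHP replicate 2 there were 20, of which 4 were higher and 16 lower). None had a Benjamini-Hochberg adjusted p under 0.05 in limma, where 2 of all clones did. At an unadjusted p under 0.05 in limma there were 3 of the 39, beside 13.6% of all clones (247 of 1816). These 3, named after their values were seen, had lower ratios in CHP/E2: Myt01-003E11 at -0.44, Myt01-012G07 at -0.31 and Myt01-013D11 at -0.24, with adjusted p in limma of 0.307, 0.363 and 0.30.

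The median difference over the 39 clones was -0.07 (-0.82 to 0.48), against 0.00 over all clones, and 12 clones were higher and 27 lower in CHP/E2 than in CHP. On the deposited ratios 16 were higher and 23 lower. The matching split over all clones is not given here. Equal bounds need not leave the direction even where groups differ in spread, and the median SD of the 39 clones was 0.28 in CHP/E2 and 0.33 in CHP. Nothing is therefore read from these counts of higher and lower clones. The most positive differences were those of Myt01-014F08, at 0.48 ± 0.30 (SE; 95% interval -0.19 to 1.15; adjusted p in limma 0.502), and Myt01-001B02, at 0.26 ± 0.27 (interval -0.33 to 0.86). The most negative were those of Myt01-011G05, at -0.82 ± 0.43 (interval -1.76 to 0.13; adjusted p in limma 0.414), and Myt01-005F03, at -0.59 ± 0.27 (interval -1.19 to 0.01; adjusted p in limma 0.366).

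These results do not show that CHP/E2 and CHP were alike. The 95% interval of the difference had a median width of 0.774 on the log2 scale. It held 0 for 36 clones, and lay within 0.5 of 0 for 18 and within 1 of 0 for 33. The arrays carrying CHP/E2 and CHP had 1 swapped array of 4 in each group, and no slide carried both groups.

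**Figure D3:**
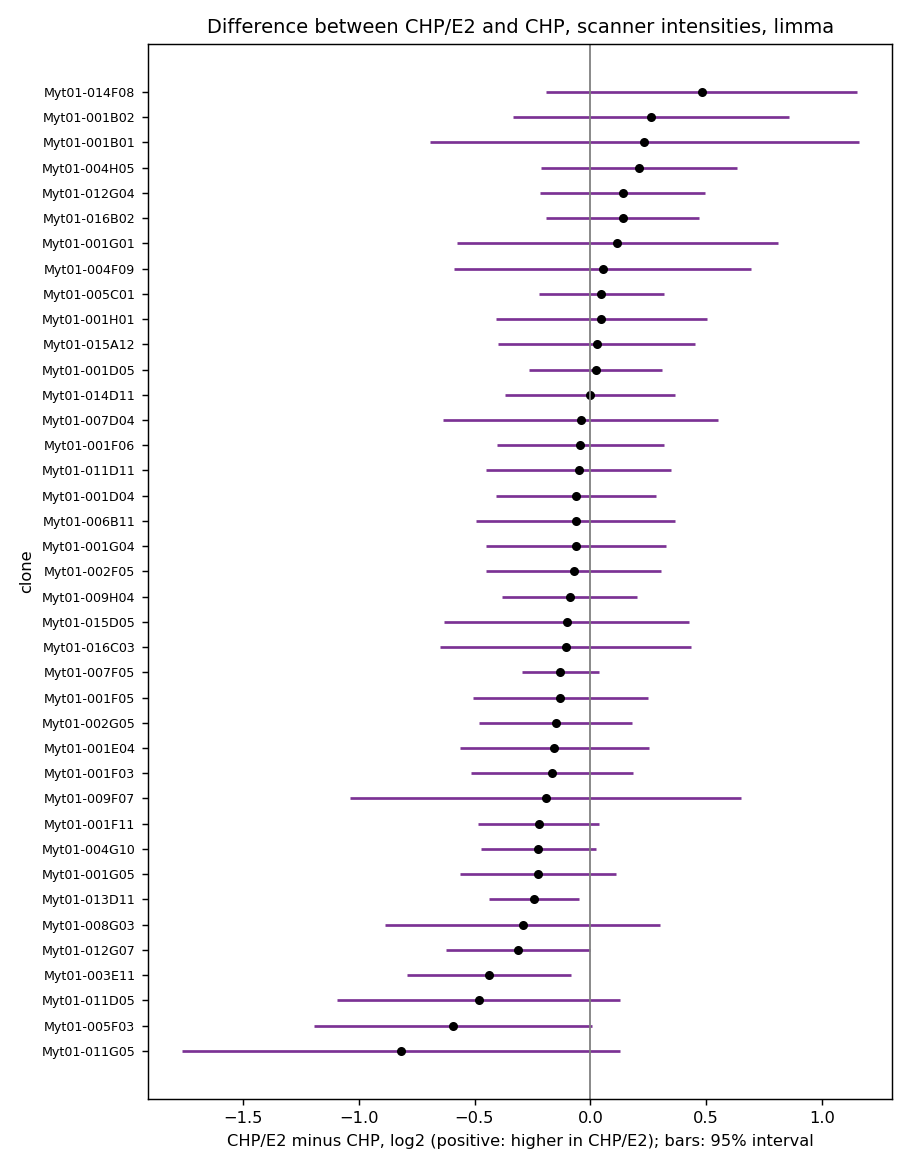
Difference CHP/E2 minus CHP in log2 (horizontal axis; positive is higher in CHP/E2) for the 39 clones (rows), from scanner intensities with limma. Points are estimates and bars are 95% intervals, of which 36 hold 0.

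Against vehicle on the scanner intensities, 5 of the 39 clones passed B over 0 upward in CHP/E2 (0.771% of all clones), 8 in CHP (1.38%) and 0 in E2 (0.22%). The same arrays chose the clones, so nothing is read from these counts. With the ratios recomputed from the intensities, the medians were 0.42 in CHP/E2, 0.50 in CHP and 0.05 in E2, and all 39 clones stayed above 0 in both chlorpyrifos groups. The mean was at least 0.25 in 32 of them in CHP/E2 and in 34 in CHP, and 29 of the 39 met the whole rule again. The recomputed ratios come from the same scans that chose the clones, so these values too are a description.

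The place of the clones on their source plates, which the rule did not use, was uneven. Of the 39, 13 (33.3%) came from plate 1, which holds 94 of the tested clones (5.18%), and no other plate held more than 3. Plates 10, 17, 18, 19 and 20 held 0. On plate 1, wells D3 to G6, a block of 16 wells picked after its values were seen, held 8 of the 39, and 11 of the plate's 13 clones had another of the group in an adjacent well. Over the 39, 13 had such a neighbour.

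The 8 clones of the group in that block had passed the same bounds as the others. Their means were 0.34 to 0.67 in CHP/E2, 0.41 to 0.84 in CHP and 0.10 to 0.22 in E2. Over all 16 wells of the block the medians were 0.39 in CHP/E2, 0.54 in CHP and 0.13 in E2, against 0.01, -0.08 and -0.03 in the plate's other 78 wells, a description of wells picked for their values. Some other wells of the block missed the rule on a single bound. These were E5 and F4, by E2 means of 0.32 and 0.26, and D6 and G3, by CHP/E2 means of 0.21 and 0.22. The remaining wells, D3, E3, E6 and G6, were not raised to the limit in either chlorpyrifos group. Their means were 0.11, 0.03, -0.03 and -0.15 in CHP/E2 and 0.06, -0.10, -0.04 and -0.025 in CHP. None of the 8 adjacent pairs lay in 1 printing block. In these 16 wells the block alternated with row and column, so the layout fixed that result for the pairs within them. The pairs of Myt01-001B01 with Myt01-001B02, Myt01-001G01 with Myt01-001H01 and Myt01-002F05 with Myt01-002G05 lay outside these wells. Nothing is read from the count. Wells further apart did share a block, as D5, F3 and F5 did in block 15. Whether place on the array bears on these ratios was not tested.

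Counts by plate column and printing block are likewise a description of places picked from their counts. Columns 3 to 5 held 20 of the 39 (51.3%) against 25.2% of tested clones, and without plate 1 they held 50% against 25.1%. Within that run column 5 held 10 clones, column 4 held 6 and column 3 held 4, and column 11 also held 6. The wells D5, D11, F5 and G5 each held a clone of the group on 3 plates. Printing block 15 held 9 of the 39 (23.1%) against 6.28% of tested clones. Most of these came from plate 1 (Myt01-001B01, Myt01-001D05, Myt01-001F03, Myt01-001F05, Myt01-001F11 and Myt01-001H01), so the counts by block and by plate overlap. With print-tip loess, which normalizes each block by itself, 38 clones met the rule, 13 of them on plate 1 and 9 in block 15. Block 15 held 5 of the clones meeting the rule without E2 replicate 3 (5 of 39), with median centring (5 of 24) and with all 4 arrays above 0 (5 of 25). Whether clones of neighbouring wells share sequence, or what else plate and well may carry, was not tested.

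**Figure D4:**
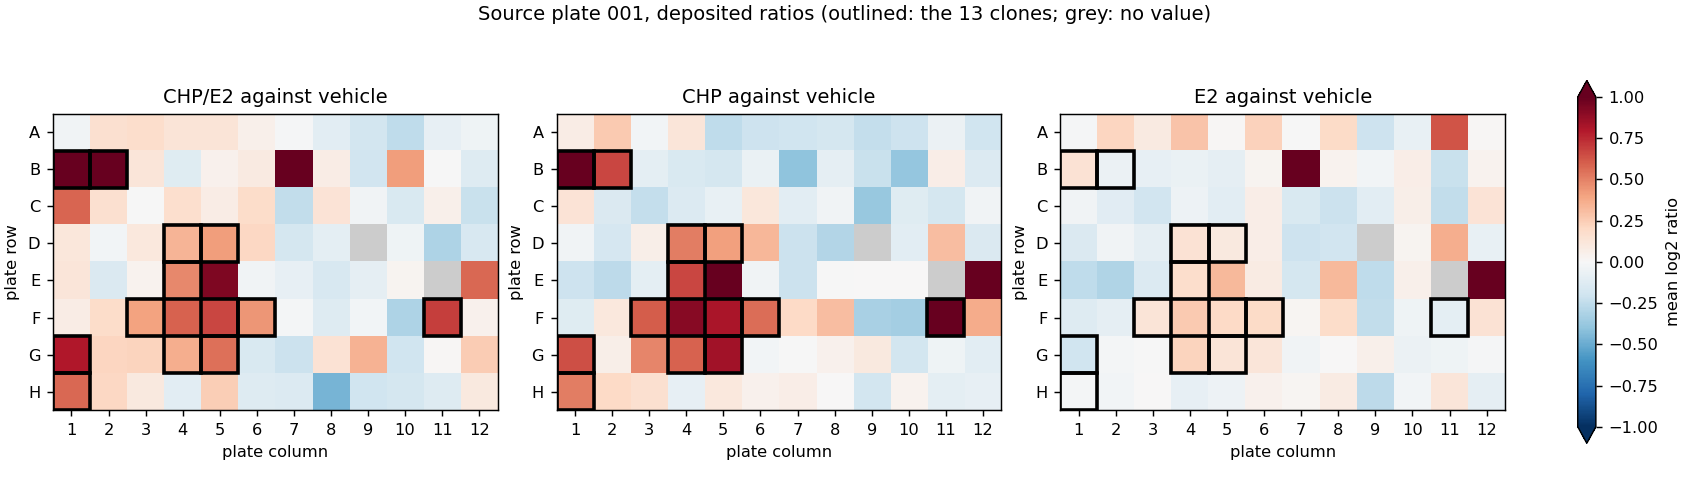
Mean deposited log2 ratio (colour) of the clones of source plate 1 by well (plate rows A to H, columns 1 to 12) in CHP/E2, CHP and E2, with the colour scale ending at -1 and 1. Outlined are the 13 clones of the group, 8 of them in wells D3 to G6, and grey wells have no deposited value.

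The probes of the group were mostly above background. Their spots exceeded the local background by 2 of its SDs in 91.0% of cases for treated and 85.6% for vehicle RNA, against 72.1% and 66.6% over all clones. The rule asked for treated above vehicle RNA in CHP/E2 and CHP, so the higher treated share was partly fixed by the choice. On all 12 arrays 26 clones were above background, and 2 were so on under 6 arrays: Myt01-002G05 on 4 and Myt01-007F05 on 2. The median difference between the spots of a clone was 0.06 on the log2 scale, against 0.11 over all clones. No spot of the group was saturated. The number of arrays, 4 in each group, limits the precision of every value here.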

How the data were processed

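The members and the lists were chosen with earlier results of these data known. The authors deposited scanner intensities (spot means and local background medians, with no normalization) and a table of normalized log2 ratios of treated to vehicle RNA, made with limma; further steps are not given in the sources used here. The rule was applied to the deposited log2 ratios. For CHP/E2 minus CHP, intensities were corrected with normexp (offset 50), normalized by loess with control spots at weight 0, averaged over the 2 spots of a clone, turned by the dyes in the labels and fitted with lmFit and eBayes over 12 arrays (R 4.3.3, limma 3.58.1, statmod 1.5.0; B at a prior proportion of 0.01; two-sided). The lowest correlation of recomputed with deposited ratios on an array was 0.881. The fit was tested on simulated data with independent noise on each array. That simulation left out shared slides and pools, so it could not test their effect.

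Clones were named by rule: the 12 largest means of CHP/E2 and CHP, the extremes of the difference, of the lowest value, of the range and of the E2 mean, and neighbours of the limits. The planned lists of genes and tissue markers could not be used, since no clone is paired with a gene. The scan names give the same treated pool number to CHP/E2 replicates 3 and 4 and to E2 replicates 2 and 4. The labels call these separate replicates. Replicates 1 and 2 of each group shared a slide. The main fit and the SDs took all arrays as separate, and p-values measure the spread between these arrays. Every ratio is against vehicle RNA. The scan names give vehicle pools 1, 2 and 3 to replicates 1 to 3 of both CHP/E2 and E2, and pools 2 and 3 to arrays of CHP. The chlorpyrifos groups thus share controls with each other and with E2. Neither the fit of CHP/E2 minus CHP nor its alternatives modelled these shared vehicle pools, so its SEs, intervals and p-values leave them out. Alternatives were other background corrections, normalizations, covariates, weights, limits of the rule, and leaving out each array.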

Additional observations from a re-analysis of the deposited data

Results flagged for a closer look

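Of 39 groups of 4 arrays tested among the 13 named clones, 1 had a value far from the others. It was CHP replicate 2 of Myt01-001F11, at 1.44, where the other CHP arrays of that clone lay between 0.84 and 0.88. Chance gives such a value in about 1 of 20 groups.

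Among the 104 clones without a deposited value, 1 met the same bounds on ratios recomputed from the scanner intensities. Myt01-005F02 had a mean over CHP/E2 and CHP of 0.79, with 0.35, 2.00, 0.14 and 1.61 in CHP/E2, 0.51, 0.32, 1.05 and 0.31 in CHP, and -0.23, 0.15, -0.01 and 0.69 in E2.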

How the results depend on the processing

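The count of 39 clones fell to 25 when all 4 arrays had to be above 0, to 24 with median centring of the intensities (15 shared, 8 on plate 1 in place of 13), and rose to 82 with no limit on E2. It was 35 to 50 with 1 array left out, and 16 clones met the rule in all 12 such sets. In these sets 1 array at or below 0 was still allowed in a chlorpyrifos group that had lost an array, a looser bound. The print-tip loess, median centring and uncorrected background settings for the rule were chosen after seeing the data. Without background correction 33 clones met it (22 shared). The medians of the 39 clones were recomputed with the scanner ratios, with pools averaged, without each array of the group and without plate 1. The setting without plate 1 was chosen after seeing the data. These medians ran from 0.42 to 0.50 in CHP/E2, 0.50 to 0.69 in CHP and 0.04 to 0.12 in E2. The clones were chosen on these same arrays and then held fixed, and each setting kept most of the values. Small shifts were thus largely fixed in advance, and nothing is read from them. The E2 median, 0.10 over all 39, was 0.06 without E2 replicate 1, 0.06 without E2 replicate 2 and 0.04 without plate 1.

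For CHP/E2 minus CHP, none of the 39 clones was called under any of 27 alternatives. Over all clones the 3 calls became 5 with no background correction, 1 with median centring, 7 on the deposited ratios, 8 with a dye term and 9 with array weights, and 2 to 20 with 1 array left out (20 without CHP replicate 2, 4 higher and 16 lower in CHP/E2 where the 3 were all higher; 5 without CHP/E2 replicate 2, CHP replicate 3 or CHP/E2 replicate 4). The labels give the replicate numbers no shared animal or day, and the deviations of same-numbered CHP/E2 and CHP arrays correlated at 0.20, 0.60, -0.45 and 0.51, so the numbers were not taken as pairs. With the replicate number as a block 3 clones were called, none of them among the 39. Slide as a random block (consensus correlation 0.363) gave 4 calls, also none among the 39. The cause of these shifts was not tested.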
